A study of Mus musculus with 3 samples.

Results

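The Nanog neighbourhood is a stretch of mouse chromosome 6 that carries Gdf3, Dppa3, Nanog and Slc2a3 in this order. Its members were all ATAC-seq peaks with a midpoint inside these 4 genes or within 50 kb of them, each assigned to the nearest of the 4. The window ran from 122555403 to 122852363 (297.0 kb, mm10, the build named in the submitters' processing notes) and held 34 Halo-Sox2, 42 Halo-Sox2a and 37 control peaks. Merging peaks that overlapped by at least 1 bp gave 52 regions, of 130664 in the whole series. ATAC-seq marks open chromatin by the insertion of sequencing adapters with a transposase, and a peak is an interval where such insertions pile up.

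The series addresses how the charge of disordered protein segments shapes the way a transcription factor finds its sites and opens closed chromatin. All 3 groups were mouse embryonic stem cells derived from CGR8 and grown in serum with LIF, the kinase inhibitor CHIR99021 and the MEK inhibitor PD184352. Line SES4.1 was induced with doxycycline (300 ng/mL for 20 h) to express Halo-Sox2, and line SES5.1 (70 ng/mL for 20 h) to express Halo-Sox2a, a form that the labels do not describe. Cells of both lines were stained with Halo-SiR, a fluorescent ligand of the Halo tag, at 50 nM and gated by FACS on the same Halo signal. Line SES11 was the control, had no inducible transgene, and is given no doxycycline dose, stain or sort in the labels. Whether a line is 1 clone is not stated in the labels.

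Nanog, a homeodomain protein, holds embryonic stem cells in the undifferentiated state together with Sox2 and Oct4 (Pou5f1). Sox2 and Oct4 bind side by side on joined SOX-POU elements, and such an element in the Nanog promoter is a classic target of the pair. Dppa3 (Stella) is a maternal factor that protects DNA methylation in the early embryo and marks naive cells, Gdf3 is a TGF-beta family ligand of the early embryo, and Slc2a3 encodes the glucose transporter GLUT3. The 4 genes lie in a cluster known to be active together in pluripotent cells, and Nanog is known to be served by distal enhancers as well as by its promoter.

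Of the 4 genes, the RefSeq promoter table held Nanog, with 2 start sites. The promoter of the first start is shown because the Halo-Sox2 list alone lacked a peak over it and because it carries the SOX-POU element. It spans chr6:122707239-122707538 on the plus strand of GRCm38.p6, which is 250 bases before the start and 50 bases from it on. Capitals mark the joined element.

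Nanog promoter: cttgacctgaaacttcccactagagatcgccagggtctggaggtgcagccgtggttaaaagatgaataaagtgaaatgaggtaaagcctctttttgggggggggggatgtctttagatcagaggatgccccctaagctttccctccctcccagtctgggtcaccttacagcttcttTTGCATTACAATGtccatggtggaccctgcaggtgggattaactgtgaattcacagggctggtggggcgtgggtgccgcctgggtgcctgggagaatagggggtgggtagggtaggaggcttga

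On the opposite strand the capitals read CATTGT, any 1 base, then ATGCAA. The element lies at chr6:122707415-122707427, from 74 to 62 bases before the first start and from 150 to 138 bases before the second. A search of both strands of all 32817 RefSeq promoter windows of 300 bases found the joined element in 4 windows (0.0122%). Both Nanog windows, which overlap and hold the same element, were among them, and the others belonged to the non-coding genes Gm31224 and Gm34106. The parts alone were common, with the SOX core CATTGT in 12.6% of windows and ATGCAA in 10.7%, and each Nanog window held 1 of each, both inside the joined element. The full octamer ATGCAAAT (1.74% of windows), the ESRRB core AAGGTCA (4.72%) and the STAT3 site TTCCNGGAA (1.15%) had no match in the Nanog windows. Among the 20 other pluripotency genes used for comparison, 12 were in the promoter table and 0 held the joined element. The joined element was searched in this 1 spelling and in promoter windows only, so other spellings and distal elements were not covered. A match describes letters and not binding.

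With 1 library in each group there is no replicate error and no test, and all differences are between single libraries. Peak scores are the authors' own and have no common scale between lists, so a peak is described by its percentile, the share of peaks in its own list with a lower score (ties weighted 0.5). An absent peak can mean signal below the calling threshold. In bulk cells, fewer cells with an open site and less opening per cell cannot be told apart. Whole lists held 88898 Halo-Sox2, 83995 Halo-Sox2a and 72638 control peaks, with no reads or coverage used here, so depth is unknown. The highest peak at an end of the Sox2 gene stood at percentile 81.7, 100.0 and 64.5 in the lists of Halo-Sox2, Halo-Sox2a and control cells. Whether reads from the transgenes of the induced lines add to these peaks was not tested. The stem cell label was checked on peaks within 1 kb of gene ends. Of 7 embryonic stem cell markers, 3 had such a peak in the Halo-Sox2 list and 5 in each other list, while 6 of 7 markers of other cell types had one in every list, so such peaks did not separate the types and do not measure expression.

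The start of Nanog had a peak in the Halo-Sox2a and control lists and no peak in the Halo-Sox2 list. The control peak (chr6:122706952-122707596, 645 bp) had a score of 116 and stood at percentile 63.6. The Halo-Sox2a peak (chr6:122707140-122707582, 443 bp) had a score of 113 and stood at percentile 54.7. Both cover the whole SOX-POU element. In the Halo-Sox2 list the nearest peaks ended 3642 bp before the start and began 8264 bp after it, so an interval of 11905 bp around the promoter and the whole gene held no peak. The plot of peaks around Nanog shows this gap.

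**Figure D1:**
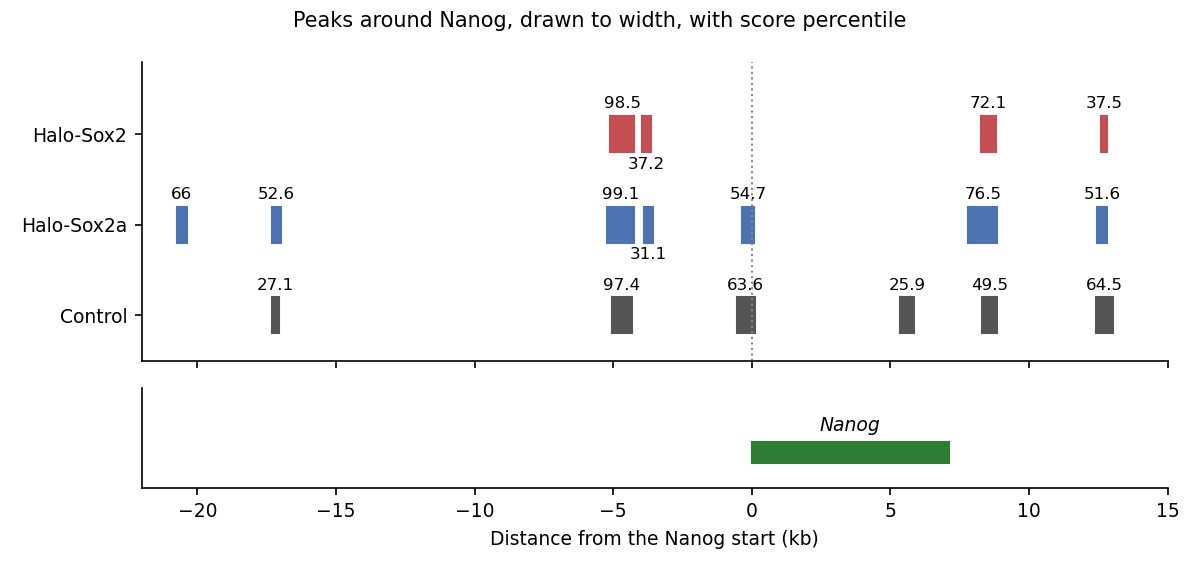
Peaks of the 3 lists around Nanog, drawn to their width against the distance from the Nanog start in kb, with each peak's score percentile within its list beside it; the dotted line marks the start and the green bar the gene. The Halo-Sox2 list has no peak at the start, where the Halo-Sox2a and control peaks stand at 54.7 and 63.6, and all 3 lists have a peak above 97 at -4.7 kb.

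This pattern made up a smaller share at promoter windows than over all regions. Of 14303 promoter windows that overlapped both a control and a Halo-Sox2a peak, 518 (3.62%) overlapped no Halo-Sox2 peak. Of 55428 union regions that held both a control and a Halo-Sox2a peak, 13444 (24.3%) held no Halo-Sox2 peak. Among the 25783 of these with a control percentile at or above that of the Nanog start, 2321 (9.0%) held none. Of 26431 regions with such a control percentile, whether or not Halo-Sox2a had a peak, 2765 (10.5%) held no Halo-Sox2 peak. The Nanog start sits at the lower edge of both sets, so their shares do not describe regions of its own rank. The promoter windows were not matched on rank. The lists overlapped similar shares of all promoter windows (Halo-Sox2 45.8%, Halo-Sox2a 46.4%, control 45.6%). Among the 20 comparison genes, 1 (Tdgf1, which encodes a Nodal co-receptor) had a peak within 1 kb of an end in the Halo-Sox2a and control lists but not in the Halo-Sox2 list, at percentiles 14.9 and 8.73.

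The upstream enhancer of Nanog, a short distance before the promoter, had a peak in all 3 lists. Its region (chr6:122702264-122703234) contains the point 5 kb upstream of the start. The Halo-Sox2 peak there had a score of 1012 (percentile 98.5, rank 1341). The Halo-Sox2a peak had a score of 823 (percentile 99.1, rank 726), and the control peak a score of 456 (percentile 97.4, rank 1894). All 3 thus lay in the top 3% of their lists and within 1.75 points of each other. So near the top of the scale, percentiles have little room to differ, while the ranks ran from 726 to 1894. The Halo-Sox2a peak was the widest, at 971 bp, against 843 bp in the Halo-Sox2 list and 739 bp in the control. A small satellite next to it (chr6:122703505-122703913) was held by both transgene lists, at percentiles 37.2 (Halo-Sox2) and 31.1 (Halo-Sox2a), and was absent from the control.

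Behind the gene, a region 1.19 kb past the end of Nanog (chr6:122715303-122716338) ranked higher in both transgene lists. With Halo-Sox2 it stood at 72.1, with Halo-Sox2a at 76.5 and in the control at 49.5. The next region, 5.57 kb past the end (chr6:122719898-122720509), went the other way, at 37.5, 51.6 and 64.5. Between these and the start, the only peak with its midpoint in the gene was a control peak (chr6:122712817-122713338) at percentile 25.9.

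Farther upstream the regions assigned to Nanog were mostly of low or middle rank. A region 38.0 kb upstream of the start (chr6:122669299-122669770) was held by all 3 lists, at percentiles 63.8, 86.4 and 70.8 in the lists of Halo-Sox2, Halo-Sox2a and control cells. A region 17.2 kb upstream (chr6:122690164-122690514) was held by the Halo-Sox2a and control lists, at 52.6 and 27.1. The Halo-Sox2a list alone held a region 20.6 kb upstream (chr6:122686735-122687118) at 66.0 and one 37.3 kb upstream (chr6:122669997-122670389) at 14.7. The Halo-Sox2 list alone held a region of 1037 bp, 32.6 kb upstream (chr6:122674342-122675378), at 50.7. No region that a list lacked stood above 66.0 here. By count, 6 Halo-Sox2, 9 Halo-Sox2a and 7 control peaks were nearest to Nanog.

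Between Dppa3 and Nanog lay a region in the top 3% of both transgene lists and lower in the control, 44.5 kb upstream of the Nanog start and 32.7 kb past Dppa3 (chr6:122662546-122663483). By the nearest-gene rule it belongs to Dppa3, although known distal Nanog enhancers lie on this side too. Its peak had a score of 1203 in the Halo-Sox2 list (percentile 99.4, rank 565). The Halo-Sox2a score was 620 (percentile 97.2, rank 2321), and the control score was 195 (percentile 80.8, rank 13899). Both transgene lists thus placed it above the control, by 18.6 and 16.4 points. Both gains lay inside the middle 95% over all regions of the 3 lists, -57.5 to 55.6 for Halo-Sox2 and -34.6 to 49.5 for Halo-Sox2a. Starting from a control percentile of 80.8, no gain could have passed either upper limit, so this does not show that the gains were usual. Among 28685 regions of all 3 lists at or below its control percentile, 0.321% reached its Halo-Sox2 percentile and 0.408% its Halo-Sox2a percentile. The region sits at the upper edge of that set, so these shares do not compare it with regions of like control rank. This region was singled out after its values were seen, and both gains are read against the same control library.

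Weaker peaks flanked it. The control list alone held regions at 46.7 kb (chr6:122660640-122660929, percentile 29.3) and 39.7 kb upstream of Nanog (chr6:122667636-122667970, percentile 24.9). The Halo-Sox2a list alone held one at 43.6 kb (chr6:122663766-122664106, percentile 26.2). At 52.3 kb upstream, both transgene lists held a region absent from the control list (chr6:122654915-122655432), at 34.2 for Halo-Sox2 and 57.5 for Halo-Sox2a.

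**Figure D2:**
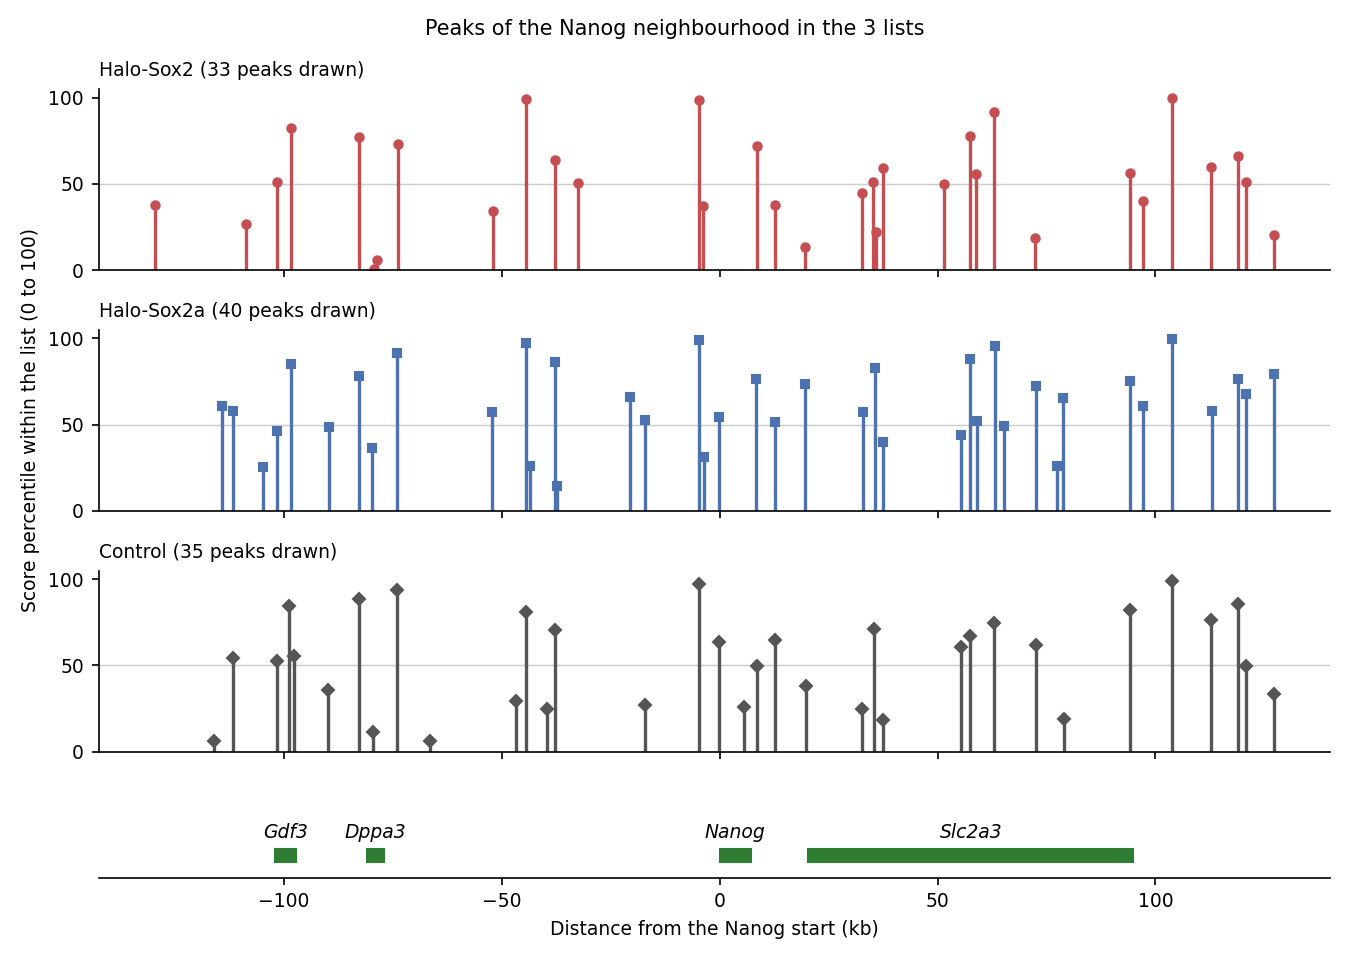
Member peaks within 140 kb of the Nanog start by their midpoint, as distance from the Nanog start in kb, with the height of the line giving the score percentile within its list (0 to 100); green bars are the 4 genes. The peaks near -4.7 kb and 103.9 kb stand above 97 in all 3 lists, and the peak near -44.5 kb stands at 99.4 (Halo-Sox2), 97.2 (Halo-Sox2a) and 80.8 (control).

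At Dppa3 itself, both flanks outranked the gene body. The region 1.73 kb before the lower-coordinate end (chr6:122624393-122624993) stood at 76.9 in the Halo-Sox2, 78.0 in the Halo-Sox2a and 88.6 in the control list. The region 3.09 kb past the other end (chr6:122632982-122633744) stood at 72.9, 91.3 and 94.0 in the same lists, with a Halo-Sox2 peak of 400 bp against 649 bp and 746 bp. The control list ranked both flanks highest.

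Inside Dppa3, a region held by all 3 lists (chr6:122627321-122628328) was weak everywhere, at 0.586, 36.2 and 11.6 in the lists of Halo-Sox2, Halo-Sox2a and control cells. The Halo-Sox2 score there was 19, close to the lowest score of 13 in that list. A further Halo-Sox2 peak inside the gene (chr6:122628661-122629030) stood at 5.81 and had no counterpart. A control peak 10.64 kb past the gene (chr6:122640819-122641005) stood at 5.93, also without one.

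Over Gdf3 itself the percentiles of the full lists were close, though not under every ranking. The broad region in its upper-coordinate part (chr6:122607882-122610056) stood at 82.1 in the Halo-Sox2, 84.9 in the Halo-Sox2a and 84.6 in the control list. It was called as 1 peak of 2160 bp with Halo-Sox2 and 1 of 2119 bp with Halo-Sox2a, and as 2 control peaks of 1331 bp and 464 bp. The region at the lower-coordinate end (chr6:122605553-122605927) stood at 51.3, 46.5 and 52.7. In both regions the 3 percentiles lay within 6.13 points of each other, and the sign of some of these differences changed with the ranking used. The end region spread further under other rankings. Among shared regions its Halo-Sox2 minus Halo-Sox2a was 19.4 and its Halo-Sox2a minus control -12.5, and with lists of equal size Halo-Sox2 and Halo-Sox2a minus control were -12.2 and -14.5.

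Around Gdf3 the lists differed more, mostly inside the neighbouring gene Apobec1, which encodes an RNA-editing cytidine deaminase. The Halo-Sox2a and control lists, without Halo-Sox2, shared regions at chr6:122595553-122595952 inside Apobec1 (57.7 and 54.2) and chr6:122617415-122617886 (48.9 and 35.8). The Halo-Sox2a list alone held regions inside Apobec1 at chr6:122593004-122593327 (60.9) and chr6:122602375-122602959 (25.6), the latter over the Apobec1 promoter window. The Halo-Sox2 list alone held chr6:122577240-122578259 beside Apobec1 (37.7) and chr6:122598586-122598851 inside it (26.5), and the control list alone chr6:122591217-122591439 (5.93).

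Slc2a3 had the most regions, 20, of which 13 were held by all 3 lists. Its annotated body in the table is long (122727809 to 122802363), and the table gives no strand or exons, so regions within it could not be placed in an exon or an intron. The region with the highest rank of the neighbourhood lay 9.02 kb past the upper-coordinate end (chr6:122810553-122812208). Its percentiles were 99.5, 99.4 and 99.1 and its scores 1267, 879 and 595 in the lists of Halo-Sox2, Halo-Sox2a and control cells, a near-constant place at the top of each list. It lies between Slc2a3 and Foxj2, a forkhead transcription factor gene.

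Several regions inside Slc2a3 ranked higher in both transgene lists than in the control. The strongest (chr6:122769971-122771062, 63.0 kb past the Nanog start) stood at 91.9 in the Halo-Sox2, 95.6 in the Halo-Sox2a and 74.5 in the control list. The region at chr6:122764354-122765453 stood at 77.9, 87.8 and 67.3, and the one at chr6:122740013-122740515 at 44.7, 57.5 and 24.9. At chr6:122744593-122745207 the Halo-Sox2 list was highest, at 59.4 against 39.7 in the Halo-Sox2a and 18.2 in the control list. A region between them (chr6:122766207-122766885) was held by both transgene lists only, at 55.5 and 52.2, and so was one past the gene (chr6:122804531-122804873), at 40.1 and 60.6.

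Other regions of Slc2a3 ranked lowest in the Halo-Sox2 list. At the lower-coordinate end (chr6:122726588-122727655), the Halo-Sox2 peak stood at 13.4, the Halo-Sox2a peak at 73.8 and the control peak at 38.0. At chr6:122779524-122780300 the percentiles were 18.5, 72.7 and 61.8. The Halo-Sox2 peak there (chr6:122779524-122780096) overlapped only part of the Halo-Sox2a (chr6:122779976-122780300) and control (chr6:122779997-122780206) peaks. When an overlap of 50% of the shorter peak was required, this region was no longer held by all 3 lists. At chr6:122742306-122743667 the Halo-Sox2a and control lists each had 1 peak of over 1.3 kb (1323 bp and 1362 bp), at 82.6 and 71.0, where the Halo-Sox2 list had 2 narrower peaks (511 bp at 51.1 and 370 bp at 21.9). The upper-coordinate end (chr6:122801140-122802223) stood at 56.2, 75.5 and 82.2. In all of these the Halo-Sox2 list was the lowest of the 3.

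Regions held by fewer lists inside Slc2a3 were of middle or low rank. The Halo-Sox2a and control lists shared chr6:122762566-122763239 (44.0 and 60.9) and chr6:122785835-122786701 (65.7 and 19.2). The Halo-Sox2a list alone held chr6:122772717-122772944 (49.2) and chr6:122784846-122785105 (25.9). The Halo-Sox2 list alone held chr6:122758698-122759012 (50.0).

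The 4 regions at the upper-coordinate edge of the window lay inside Foxj2. The region over its promoter window (chr6:122819429-122821015) stood at 59.6 in the Halo-Sox2, 57.7 in the Halo-Sox2a and 76.6 in the control list. The next (chr6:122826004-122826868) stood at 66.3, 76.5 and 85.9, and the third (chr6:122828117-122828540) at 51.3, 67.9 and 49.7. The last (chr6:122834402-122834798) stood at 20.1, 79.4 and 33.5. Just outside the window, the nearest peaks lay 72.2, 51.6 and 72.3 kb below Gdf3 in the lists of Halo-Sox2, Halo-Sox2a and control cells (percentiles 95.1, 11.5 and 89.0).

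**Figure D3:**
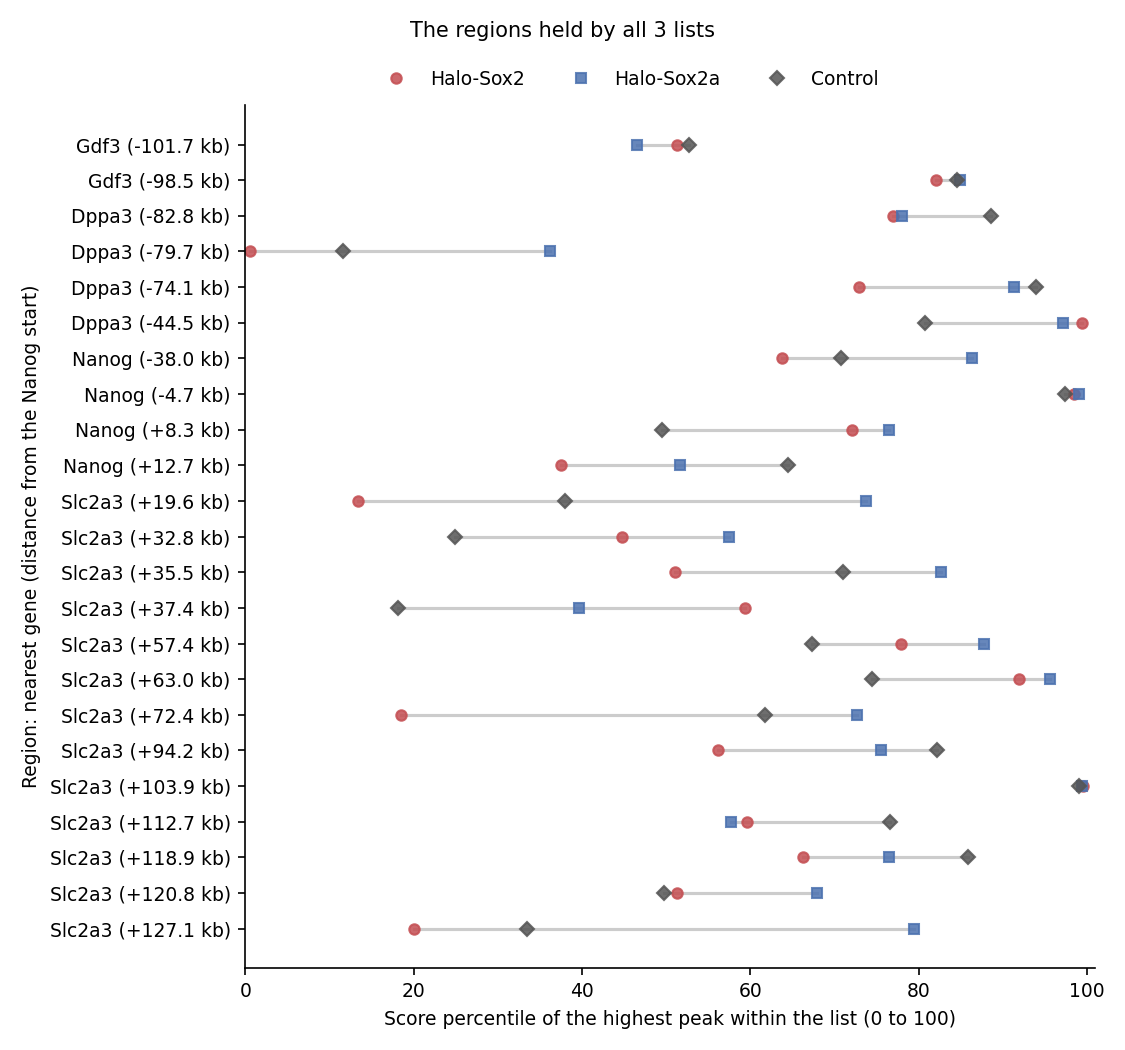
The 23 regions held by all 3 lists within 140 kb of the Nanog start, in order along the chromosome, each named by its nearest gene and its distance from the Nanog start, with the score percentile of the highest peak in each list (circles Halo-Sox2, squares Halo-Sox2a, diamonds control). The Halo-Sox2 circle lies left of the Halo-Sox2a square in 18 of these 23 regions. Over all 41984 regions of the 3 lists, Halo-Sox2 ranked higher than Halo-Sox2a in 28.7%, so a lower Halo-Sox2 rank was common over the genome too.

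Over the 24 regions held by all 3 lists, Halo-Sox2 ranked lower and Halo-Sox2a higher than the control on balance, as over the genome. The median percentile was 59.5 in the Halo-Sox2, 76.5 in the Halo-Sox2a and 69.1 in the control list, against 61.5, 72.3 and 67.9 over all 41984 such regions of the genome. Halo-Sox2 minus control had a median of -9.01 points (range -43.3 to 41.2), against -5.22 over the genome (middle 95%, -57.5 to 55.6). Halo-Sox2 was higher than the control in 9 of the 24, where 36.0% of all such regions were. Halo-Sox2a minus control had a median of 11.2 points (-18.9 to 45.9), against 1.77 (-34.6 to 49.5), with 16 of the 24 higher, against 57.5% over the genome.

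For each of the 24 regions, the difference from the control lay inside the middle 95% of the genome, in both comparisons, which share that control library. These ranges pool regions of every control rank. A region ranked high in the control could not pass the upper limits, nor one ranked low the lower limits. Lying inside them thus does not show that no region was unusual. In 5 of the 24, Halo-Sox2 stood at least 10 points below the control and Halo-Sox2a at least 10 points above it, against 5.92% of all such regions (7.02% when either list may be the higher). Ranked among shared regions alone, 2 of these 5 kept 10 points both ways. Halo-Sox2 minus Halo-Sox2a had a median of -11.5 points (-60.4 to 19.6), against -7.17 (-55.2 to 34.0), with 5 of the 24 higher, against 28.7%. In this direct comparison 2 regions lay outside the middle 95%, at the lower-coordinate end of Slc2a3 (13.4 against 73.8) and in Foxj2 (20.1 against 79.4). Ranks among the peaks of shared regions alone, which leave out list-specific peaks, brought the medians to -2.55, 8.05 and -2.06 in the same order.

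Read by presence, the neighbourhood held more shared regions than the genome and fewer of Halo-Sox2 alone. All 3 lists held 24 of the 52 regions (46.2%, 95% Wilson interval 33.3 to 59.5%), against 32.1% of all union regions. Halo-Sox2 alone held 5 (9.62%, 4.18 to 20.6%), against 24.3%. The 20 comparison loci, taken with the same 50 kb and 330 regions in all, gave 40.3% and 12.1% for the same classes, so both shares lay near those of other pluripotency genes. The intervals cover counting error only, and neighbouring regions are not independent.

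The other classes lay near their shares over the genome. Halo-Sox2a and the control without Halo-Sox2 held 7 regions (13.5%), against 10.3% of all union regions and 12.1% at the comparison loci. Halo-Sox2a alone also held 7 (13.5%), against 12.2% and 16.7% in the same order. Both transgene lists without the control held 4 (7.69%), against 8.95% and 11.2%. The control alone held 5 (9.62%), against 10.2% and 5.15%. No region was shared by Halo-Sox2 and the control without Halo-Sox2a. That is 0 of 52, which allows a share of up to 5.77% when a count of 0 is taken to allow 3 (Wilson upper bound 6.88%), and the genome had 1.9%. Counting any peak, the Halo-Sox2a list was present in 42 of the 52 (80.8%, 68.1 to 89.2%), against 63.6% over the genome and 80.3% at the comparison loci. The Halo-Sox2 list was present in 33 (63.5%), against 67.3% and 66.1%, and the control in 36 (69.2%), against 54.5% and 60.0%.

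**Figure D4:**
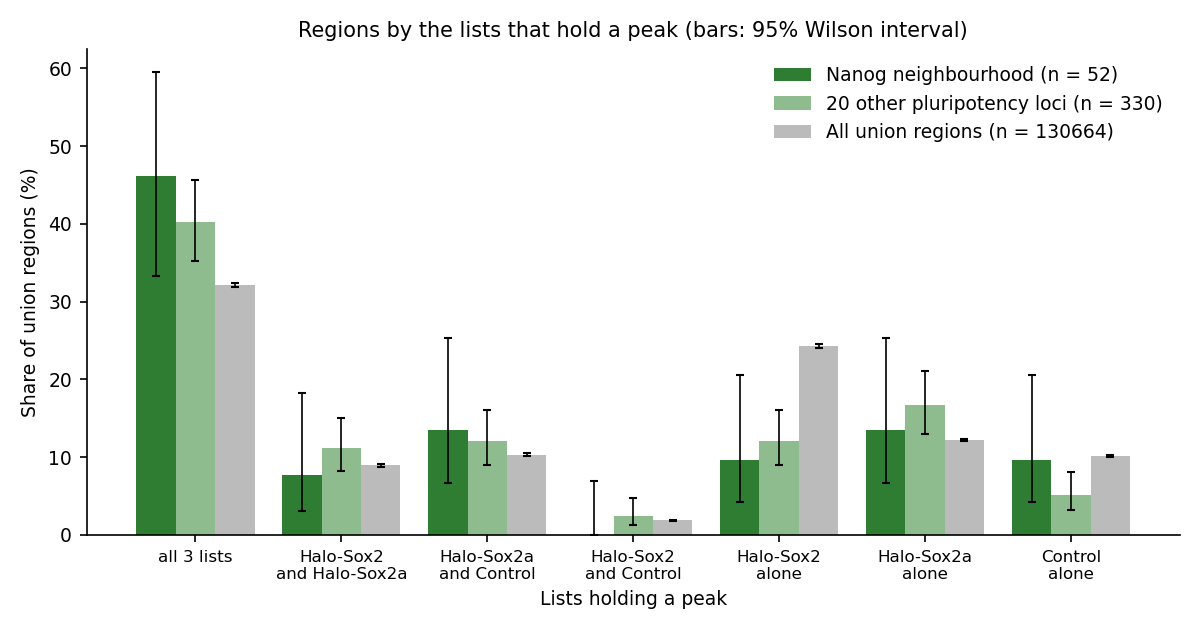
Share of union regions (%) by the lists that hold a peak, for the 52 regions of the Nanog neighbourhood, the 330 regions around 20 other pluripotency genes and all 130664 union regions, with 95% Wilson intervals. The neighbourhood has 46.2% of its regions in all 3 lists, against 32.1%, and 9.62% in Halo-Sox2 alone, against 24.3%.

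Peaks were dense here in all 3 lists. There were 11.4 Halo-Sox2, 14.1 Halo-Sox2a and 12.5 control peaks per 100 kb, which was 3.31, 4.24 and 4.3 times the density over chromosome 6. They covered 7.29%, 9.27% and 7.33% of the window, against 1.97%, 1.93% and 1.58% of the chromosome. Shared regions were wider with Halo-Sox2a than in the control by a median of 114.0 bp, against a median of 62.0 bp over the genome. With Halo-Sox2 the widths split evenly, wider in 12 and narrower in 12. Median peak widths in the window were 492.0, 544.0 and 464.0 bp in the lists of Halo-Sox2, Halo-Sox2a and control cells.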

How the data were processed

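The deposited data were 3 peak lists, 1 per library. Each line places a peak on a chromosome and adds its name and the authors' deposited score, a whole number with no stated scale. The submitters' processing notes name mm10, STAR, SAMtools, MACS2 (version 3.0.0a7), deepTools (version 3.3.0) and MACS3, with no role or order. The calling threshold and any Tn5 offset are not given in the sources used here. The lowest score was 13 in every list, and the last peak number exceeded the number of peaks by 50 or 51. Every peak name carries 1 library name, so peaks were called per library.

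Starts were converted to 1-based positions. Overlapping peaks (at least 1 bp) were merged over the whole genome, and each region was classed by the lists holding it and described by the highest peak of each list. Where a list had 2 peaks in a region, the higher set the percentile. Percentiles were ranks within a list. Gene positions and promoter sequences came from RefSeq tables of GRCm38.p6. The density over chromosome 6 used the span from its first to its last peak (146.0 Mb). Wilson 95% intervals came from scipy (version 1.17.1), with pandas (version 2.3.3). Merging and classing were tested on simulated lists with known answers. Reads from pseudogene copies could not be examined in peak lists.

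Named were the 4 genes, the regions over or within 1 kb of them and the 3 highest regions of each gene. So were the region 5 kb upstream of Nanog and the regions not held by all 3 lists, apart from any not reported here. Regions of all 3 lists inside Foxj2 and past Nanog were added to account for further members, and 2 regions are counted but not reported here. The members and lists were chosen with earlier results of these data known. The alternatives were other overlap rules, lists of equal size, peaks above percentile 50, windows of 20 and 100 kb, and percentiles among shared regions.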

Additional observations from a re-analysis of the deposited data

Results flagged for a closer look

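In 5 of the 24 regions of all 3 lists, Halo-Sox2 and Halo-Sox2a percentiles moved at least 10 points from the control in opposite directions. Over the genome, 7.02% of all 41984 such regions did so. In all 5, Halo-Sox2 was below and Halo-Sox2a above the control, a direction taken by 5.92% over the genome. Each group is 1 library and both differences share the control, so the opposition was not tested. Inside Dppa3 (chr6:122627321-122628328) Halo-Sox2 minus control was -11.0 and Halo-Sox2a minus control 24.5, on low scores of 19, 70 and 30 for Halo-Sox2, Halo-Sox2a and control. At the lower-coordinate end of Slc2a3 (chr6:122726588-122727655) the differences were -24.6 and 35.8. Inside Slc2a3 they were -19.9 and 11.6 at chr6:122742306-122743667 and -43.3 and 10.9 at chr6:122779524-122780300. Inside Foxj2 (chr6:122834402-122834798) they were -13.4 and 45.9. The size of these moves depended on the ranking. Ranked among shared regions, 2 of the 5 kept 10 points both ways, while the region inside Dppa3 gave -3.62 and 9.35, that at chr6:122779524-122780300 gave -32.0 and 7.54, and that inside Foxj2 gave -3.69 and 45.2. With lists of equal size, 3 of the 5 were still held by all 3 lists and 1 of them kept 10 points both ways. With an overlap of at least 50% of the shorter peak, 4 of the 5 were still held by all 3 lists and kept 10 points both ways. The region at chr6:122779524-122780300 was not, because its Halo-Sox2 peak overlapped only part of the other peaks.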

How the results depend on the processing

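The Nanog start kept its Halo-Sox2a and control peaks under all 7 settings tried for presence. The missing Halo-Sox2 peak could not change under them. The nearest Halo-Sox2 peaks lay 3642 bp and 8264 bp away, and the settings altered only merging or window or removed peaks. Of 49 recomputed class counts, 37 stayed within 1.5 times the reported value. Requiring at least 50% of both peaks to overlap gave 1 region of Halo-Sox2 and the control and single-list counts of 10 (Halo-Sox2), 11 (Halo-Sox2a) and 8 (control). Keeping peaks above percentile 50 left 13 regions in all 3 lists, 4 in Halo-Sox2a and the control, 1 in Halo-Sox2 and the control, 3 in Halo-Sox2 alone and 2 in the control alone. The 20 kb window left single-list counts of 3 (Halo-Sox2), 4 (Halo-Sox2a) and 3 (control). The median member percentile, reported here only, was 51.2, 59.1 and 55.3 for Halo-Sox2, Halo-Sox2a and control; it was 43.0 and 52.7 for the first pair with lists of equal size, and 48.4, 57.3 and 50.5 among shared regions.

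The median differences over shared regions (Halo-Sox2 minus control, Halo-Sox2a minus control, Halo-Sox2 minus Halo-Sox2a) kept their signs. They were -12.2, 6.58 and -13.0 with lists of equal size, and -2.55, 8.05 and -2.06 among shared regions, and the first and last were -6.99 and -10.2 with an overlap of 50% of the shorter peak. Of 204 recomputed differences at the 24 regions, 11 changed sign. Among shared regions, the broad Gdf3 region gave 0.429, -3.54 and 3.97 in the same order, and the other Gdf3 region 6.86 for Halo-Sox2 minus control. There, Halo-Sox2 minus Halo-Sox2a became 9.31 before Dppa3, 5.88 and 1.97 in the 2 regions past Nanog, and 2.42 at chr6:122740013-122740515. With lists of equal size, Halo-Sox2a minus control was -2.03 at the broad Gdf3 region, and in Foxj2 Halo-Sox2 minus control was -9.29 (chr6:122828117-122828540) and Halo-Sox2 minus Halo-Sox2a -0.529 (chr6:122819429-122821015). In lists of equal size, an alternative chosen after seeing the data, the share of promoter windows without a Halo-Sox2 peak was 5.2% and the share of all regions at or above the control percentile of the Nanog start without one was 14.0%. The cause of these shifts was not tested. No paired analysis was possible because each group has 1 library. Depth is unknown, and whether a missing peak was absent or below the calling threshold was not tested.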
